A study of Mus musculus with 10 samples.

Results

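Guanylate-binding proteins (GBPs) are large GTPases of the dynamin superfamily that cells make in response to interferons, above all interferon-gamma. They coat membranes of intracellular bacteria and parasite vacuoles, and in macrophages they help caspase-11 and other inflammasomes detect what is released from them. Their transcripts also serve as a readout of interferon signalling in tumors, where leukocytes, stromal cells and tumor cells can all make them. The 8 genes described here, Gbp2 to Gbp9, were taken by name from the 17737 genes of the deposited count table, and all 8 were found by their Ensembl identifiers. Gbp2b, Gbp10 and Gbp11, the other GBP genes of the table, are given only for comparison.

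The B16-F10 melanoma line of the mouse was grown under the skin of the flank in C57BL/6 hosts, and tumors were taken on day 11. The implanted cells overexpressed IL-18 in which aspartate 69 was replaced by alanine (D69A tumors 1 to 5) or wild-type IL-18 (WT tumors 2 to 6), so both groups carried an overexpressed IL-18 and no tumor without one was analysed here. IL-18 is a cytokine that is activated by caspase cleavage and drives interferon-gamma release by NK and T cells. The sources do not state whether each line was 1 clone, so a difference between the lines and an effect of the substitution cannot be told apart, nor whether each tumor came from its own mouse, so p-values reflect only how much these samples vary, which may be technical. In bulk tissue, fewer cells of a type and less RNA per cell cannot be told apart either.

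The labelled tissue was checked against marker genes. Total counts lay between 34400949 and 37578722 in D69A tumors and between 25904345 and 37556163 in WT tumors. The summed level of 8 melanoma markers was 23700 to 30280 CPM (read counts scaled to a common library size) in D69A tumors and 16190 to 19980 CPM in WT tumors, and none was at 0. Of these 8, 5 were higher in D69A tumors, against 18.8% of all genes. Mlana, Mitf and Sox10 overlapped between the groups and did not pass (edgeR adjusted p = 0.210, 0.168 and 0.0989). Leukocyte genes moved the other way. Of 12 pan-leukocyte genes such as Ptprc, which encodes CD45, 12 were lower in D69A tumors, where 24.7% of all genes tested were called lower. Their summed level was 259.3 to 526.2 CPM in D69A tumors against 688.1 to 1818 CPM in WT tumors. All 5 tested T cell markers were lower too, summing to 2.55 to 13.02 CPM in D69A tumors and 14.9 to 50.9 CPM in WT tumors. So were all 5 NK cell markers, with sums of 1.38 to 4.52 CPM in D69A tumors and 12.8 to 21.6 CPM in WT tumors, and Klre1 at 0 in at least 1 tumor. Of 5 macrophage and monocyte markers, Adgre1, Csf1r, Mrc1 and Ly6c2 were lower without overlap. Cd68, at 194.0 to 229.9 CPM in D69A tumors and 158.9 to 231.7 CPM in WT tumors, did not pass (edgeR adjusted p = 0.454), and the sums of all 5 overlapped, at 266.5 to 333.7 CPM in D69A tumors and 320.7 to 628.0 CPM in WT tumors. All 5 fibroblast and all 5 endothelial markers were lower. Of 4 B cell markers 3 were too low to test, and each had 0 counts in at least 1 tumor. None of 9 skeletal muscle markers passed, and their RNA was highest in D69A tumor 1, WT tumor 3 and WT tumor 4. The part of these other cell types in the GBP values per CPM was not tested.

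The family lies in 2 clusters. Gbp5, Gbp7, Gbp3 and Gbp2 lie in this order on the plus strand of chromosome 3, from 142493978 to 142638008 in mm10, with Gbp2b between Gbp3 and Gbp2. Gbp8, Gbp9, Gbp4 and Gbp6 lie on the minus strand of chromosome 5, from 105014150 to 105293698. The coding sequences within the chromosome 5 cluster are close copies, with 90.2 to 92.9% identity between any pair, against 64.4 to 78.3% within the chromosome 3 cluster and 63.4 to 75.4% between the clusters. Close copies can share reads. Of all 100-base words in its annotated transcripts, Gbp6 shared 64.5% with other genes, mostly with Gm43302, an annotated gene that spans Gbp6 and Gbp10 on the same strand. Gbp7 shared 10.01% (mostly with a processed pseudogene inside its own locus), Gbp8 4.39%, and Gbp2, Gbp3, Gbp4, Gbp5 and Gbp9 between 0 and 1.65%. With words of 50 bases the shares were larger. Gbp6 then shared 70.65%, Gbp8 18.12%, Gbp7 12.74%, Gbp9 8.05%, Gbp4 7.78%, Gbp3 3.75%, Gbp2 2.03% and Gbp5 1.44%. The read length is not given in the sources used here. The annotations of Gbp8, Gbp9 and Gbp4 also overlap, over 1.6 to 3.5% of their exon sequence, and no more than 1.0% of any member's exon sequence lies opposite another gene.

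The ends of the coding sequences show what separates the members. GBPs that carry a cysteine as the fourth residue from the end are prenylated, which anchors them in membranes. The last 15 coding bases before the stop codon, from GENCODE mouse transcripts, are shown for both members that have such a cysteine codon (capitals), for 1 that lacks it, and for Gbp6 and Gbp10, whose ends are identical letter for letter:
Gbp2: aagTGCactatactc
Gbp5: gacTGTgttataagc
Gbp7: aaagttagaaaactc
Gbp6: tatctaaagcattta
Gbp10: tatctaaagcattta

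GBP transcripts were far lower in D69A than in WT tumors. Every one of the 8 genes fell, by 4.56-fold (Gbp7) to 7.25-fold (Gbp5) with all tumors in the fit, and their log2 fold changes had a median of -2.68 against 0.00 (0.00244) over all genes tested. The background was high in this comparison: 24.7% of 13798 tested genes were lower in D69A tumors at the same threshold of 0.05 (edgeR quasi-likelihood p, Benjamini-Hochberg adjusted over all genes). A decrease of at least 4-fold past the threshold was found for 8 of 8 members and for 8.02% of all genes. In 8 of 8 members the highest D69A tumor lay below the lowest WT tumor, which held for 17.4% of all genes. Counts of the 8 genes summed to 66.2, 111.0, 138.7, 150.6 and 247.9 CPM in the D69A tumors and to 446.7, 724.1, 832.9, 856.0 and 1053 CPM in the WT tumors. All 8 members passed the filter on low counts.

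**Figure D1:**
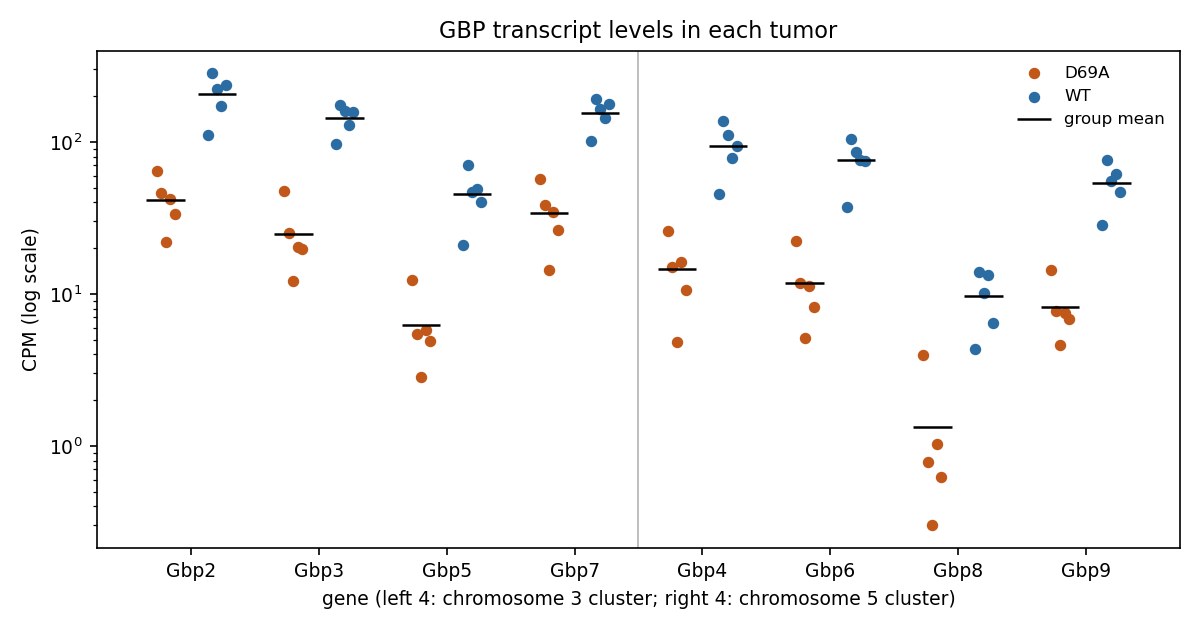
Level of each GBP gene (CPM, log axis) in the 5 D69A tumors and the 5 WT tumors, 1 point per tumor, with the arithmetic group mean as a bar. For every gene the D69A points lie below the WT points, and the gap is narrowest for Gbp8, at 3.96 CPM in D69A tumor 1 and 4.34 CPM in WT tumor 2.

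On chromosome 3, Gbp2 had the highest level per length in both groups. Gbp2 encodes a prenylated GBP that is recruited to Toxoplasma vacuoles in mouse cells. Gbp2 stood at 64.6, 46.4, 21.99, 41.9 and 33.7 CPM in D69A tumors 1 to 5, against 112, 283, 224, 173 and 236 CPM in WT tumors 2 to 6. The WT tumors were all higher, and the closest pair was D69A tumor 1 and WT tumor 2. The log2 fold change of Gbp2 was -2.30 with an SE of 0.30 (edgeR adjusted p = 0.000541), or 4.92-fold lower. Per kilobase of exon, Gbp2 had a level of 16.6 ± 6.28 CPM in D69A tumors and 81.6 ± 26.0 CPM in WT tumors (SD, n = 5 each). It thus stood above 68.9% of genes in D69A tumors and above 94.6% in WT tumors.

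Gbp7, which in mouse macrophages has been linked to the delivery of NADPH oxidase to vacuoles, had a decrease close to that of Gbp2. It stood at 56.8, 38.3, 14.4, 34.8 and 26.3 CPM in D69A tumors 1 to 5 and at 101, 192, 164, 143 and 178 CPM in WT tumors 2 to 6. D69A tumor 3 was the lowest of all, and no D69A tumor reached the lowest WT tumor. The log2 fold change of Gbp7 was -2.19 (SE 0.31, edgeR adjusted p = 0.000712).

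Gbp5 and Gbp8 had the lowest fold changes of the family. Gbp5 encodes the other prenylated member, reported to promote NLRP3 inflammasome assembly in mouse macrophages. Gbp5 stood at 12.4, 5.46, 2.82, 5.80 and 4.91 CPM in D69A tumors 1 to 5, against 21.0, 71.0, 46.5, 49.3 and 40.0 CPM in WT tumors 2 to 6. The groups did not overlap, and D69A tumor 1 stood well above the other D69A tumors. Its log2 fold change was -2.86 (SE 0.40, edgeR adjusted p = 0.00067). It was -3.25 (-3.245) without D69A tumor 1 and -2.63 without D69A tumor 3. The 2 members with the cysteine codon, Gbp5 and Gbp2, thus lay towards opposite ends of the family's range, and the difference between them was not tested. Gbp3 ranged from 12.1 to 47.5 CPM in D69A tumors and from 97.2 to 176 CPM in WT tumors, and was 5.76-fold lower (log2 fold change -2.53, SE 0.32, edgeR adjusted p = 0.000513).

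On chromosome 5 the 4 members were 6.41-fold to 7.14-fold lower. Without D69A tumor 1 the log2 fold changes of Gbp4, Gbp6 and Gbp9 were -2.98, -3.04 and -2.99, and that of Gbp8 was -3.79. Without D69A tumor 3 they were smaller in size, at -2.41, -2.45, -2.51 and -2.54 in the same order. Gbp6, reported among the GBPs that protect mouse macrophages from mycobacteria, stood at 22.3, 11.9, 5.11, 11.2 and 8.17 CPM in D69A tumors 1 to 5 and at 37.2, 104, 85.5, 75.6 and 74.9 CPM in WT tumors 2 to 6. All WT tumors were higher. Its log2 fold change was -2.68 (SE 0.38, edgeR adjusted p = 0.000673). Because most of its transcript words are shared, the counts of Gbp6, Gbp10 and Gm43302 were also summed into 1 value, a choice made after seeing the data. The sum was 18.1 ± 9.39 CPM in D69A tumors and 120 ± 40.4 CPM in WT tumors (SD, n = 5 each), with a log2 fold change of -2.73 (SE 0.38, edgeR adjusted p = 0.000638), close to the value of Gbp6 alone.

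Gbp4, which in mouse cells has been reported to restrain IRF7 signalling, ranged from 4.84 to 26.0 CPM in D69A tumors and from 45.3 to 138 CPM in WT tumors. It was 6.41-fold lower (log2 fold change -2.68, SE 0.41, edgeR adjusted p = 0.000873). Gbp9 ranged from 4.60 to 14.4 CPM in D69A tumors and from 28.5 to 75.7 CPM in WT tumors. It had the smallest adjusted p of the family (log2 fold change -2.70, SE 0.32, edgeR adjusted p = 0.000461). Gbp8 was the scarcest member, at 3.96, 0.78, 0.30, 1.035 and 0.62 CPM in D69A tumors 1 to 5 and 4.34, 14.02, 10.1, 13.2 and 6.43 CPM in WT tumors 2 to 6. D69A tumor 1 came close to WT tumor 2, and behind these values stood 10 to 148 counts in D69A tumors and 168 to 513 counts in WT tumors. Its log2 fold change was -2.84 with the widest SE of the family, 0.63 (edgeR adjusted p = 0.0045). It thus differed little from that of Gbp5 with all tumors, but was lower than that of Gbp5 without D69A tumor 1.

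Both other tested GBP genes had lower log2 fold changes than the 8 members with all tumors in the fit, and these differences were not tested. Gbp2b, known in the mouse as Gbp1, stood at 0.98 ± 0.80 CPM in D69A tumors and 9.15 ± 4.37 CPM in WT tumors (SD, n = 5 each), a change of -3.22 on the log2 scale (SE 0.61, edgeR adjusted p = 0.0021). Behind its values stood 5 to 83 counts in D69A tumors and 102 to 464 counts in WT tumors. Gbp10 stood at 2.12 ± 1.62 CPM in D69A tumors and 16.9 ± 6.98 CPM in WT tumors (log2 fold change -2.99, SE 0.49, edgeR adjusted p = 0.00108), with the reads it can share with Gbp6. Per kilobase of exon, Gbp2b had a lower mean than all 8 members in both groups, at 0.35 CPM in D69A tumors and 3.24 CPM in WT tumors, and Gbp10 lay just above Gbp8, at 0.60 CPM in D69A tumors and 4.79 CPM in WT tumors.

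The tumors kept nearly the same order from gene to gene. D69A tumor 3 was the lowest and D69A tumor 1 the highest D69A tumor for 8 of 8 members, and WT tumor 2 was the lowest and WT tumor 3 the highest WT tumor for 8 of 8. The summed pan-leukocyte level was likewise lowest in D69A tumor 3 and highest in D69A tumor 1 among the D69A tumors, and lowest in WT tumor 2 and highest in WT tumor 3 among the WT tumors. The summed NK cell and endothelial markers had the same lowest and highest tumors, and the other summed marker sets did not. Between the extremes the orders differed. Pan-leukocyte genes held 0.177% of counts in WT tumor 5, 0.107% in WT tumor 4 and 0.0984% in WT tumor 6. The summed GBP levels there were 724.1, 856.0 and 832.9 CPM.

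The make-up of the family was compared per kilobase of exon. Gbp2 held 40.2 ± 3.16% of the summed level in D69A tumors and 34.7 ± 2.13% in WT tumors (SD, n = 5 each). Gbp3 came next with 18.1 ± 1.75% in D69A tumors and 19.7 ± 2.09% in WT tumors. Gbp7 held 14.2 ± 1.05% in D69A tumors and 12.1 ± 1.15% in WT tumors, and Gbp6 10.3 ± 0.85% in D69A tumors and 12.3 ± 1.05% in WT tumors, so Gbp7 lay above Gbp6 in D69A tumors, without overlap, while their ranges overlapped in WT tumors; over coding length Gbp7 lay above Gbp6 without overlap in both groups. Gbp4, Gbp5, Gbp9 and Gbp8 followed, each under 10%, in that order in both groups. The ranges of the groups overlapped for every member. In unscaled CPM, the chromosome 5 cluster made up 22.4 to 26.9% of the 8 genes in D69A tumors and 25.8 to 31.6% in WT tumors, again with overlap. Over the longest coding sequence in place of all exons, Gbp2 remained first with 31.3% in D69A tumors and 27.1% in WT tumors, and Gbp7, moved to the next place with 22.8% in D69A tumors and 19.4% in WT tumors.

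**Figure D2:**
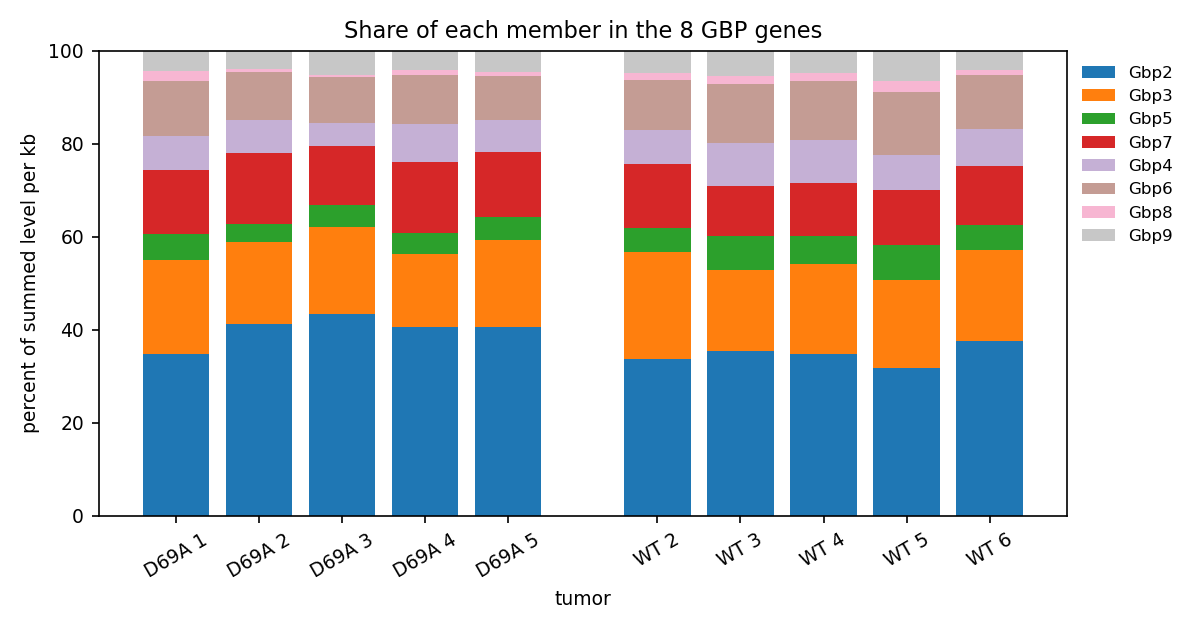
Share of each member in the summed level per kilobase of exon of the 8 GBP genes (percent), 1 bar per tumor, D69A tumors on the left and WT tumors on the right. Gbp2 takes 34.9 to 43.4% in D69A tumors and 31.9 to 37.6% in WT tumors, and the order of the large shares is similar in all tumors.

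Since leukocyte genes were lower in the same tumors, the GBPs were also measured against them. On this scale a gene's counts were divided by the summed counts of the 12 pan-leukocyte genes in the same tumor, and the same edgeR test was run over all genes. The 12 pan-leukocyte genes did not move alike on it. Their median log2 fold change was -0.19, and 1 of them, Arhgdib, was called higher (0.80, edgeR adjusted p = 0.0133). All 8 members had negative fold changes and 6 of 8 passed the threshold, against 2.46% of all genes called lower and 83.5% called higher. The scale itself raises genes not tied to leukocytes, and its median over all genes was a log2 fold change of 1.81, against -0.87 over the 8 members. Markers of some cell types were lower on this scale too: 3 of 5 NK cell markers (median log2 fold change -1.07), 3 of 5 tested T cell markers (-0.76) and 2 of 5 fibroblast markers (-0.64). Others went the other way: 4 of 5 endothelial (1.01) and 8 of 8 melanoma markers (2.16) were higher and none lower. Of 5 macrophage and monocyte markers, 2 were higher and 1 lower (0.32). No skeletal muscle marker passed, nor did the 1 tested B cell marker. The part of these cell types in the GBP values was not tested. Gbp5 had 10.9 to 23.5 counts per 1000 pan-leukocyte counts in D69A tumors and 27.8 to 44.9 in WT tumors, without overlap, and its log2 fold change was -1.03 (SE 0.28, edgeR adjusted p = 0.00142). Gbp9 had 17.7 to 27.4 in D69A tumors and 34.6 to 53.1 in WT tumors, also without overlap (log2 fold change -0.86, SE 0.27, edgeR adjusted p = 0.00423). Gbp6 was the third member whose groups were apart, narrowly, with 19.7 to 42.4 in D69A tumors and 42.6 to 82.5 in WT tumors (log2 fold change -0.90, SE 0.30, edgeR adjusted p = 0.00749). Of all genes 1.70% had groups apart in this direction.

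Gbp8 (log2 fold change per pan-leukocyte count -1.12, SE 0.37, edgeR adjusted p = 0.0065), Gbp4 (-0.88, SE 0.33, adjusted p = 0.0151) and Gbp3 (-0.81, SE 0.32, adjusted p = 0.0216) passed with overlapping groups. Gbp2 and Gbp7 did not pass. Gbp2 had 122.7, 148.9, 84.8, 147.7 and 117.7 counts per 1000 pan-leukocyte counts in D69A tumors 1 to 5 and 162.3, 155.4, 215.7, 97.4 and 241.8 in WT tumors 2 to 6, where WT tumor 5 fell among the D69A tumors. Its log2 fold change was -0.49 (SE 0.33, edgeR adjusted p = 0.163) and that of Gbp7 -0.43 (SE 0.33, edgeR adjusted p = 0.223). The count of calls depends on the yardstick: against Ptprc alone only Gbp5 and Gbp8 of the 8 passed. Gbp3 lost its call without D69A tumor 3, D69A tumor 5, WT tumor 4 or WT tumor 6 (edgeR adjusted p = 0.0745, 0.0513, 0.0637 and 0.0703), and Gbp4 without D69A tumor 3 or WT tumor 4 (0.0618 and 0.0566). This scale does not say which cells made the GBP transcripts.

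**Figure D3:**
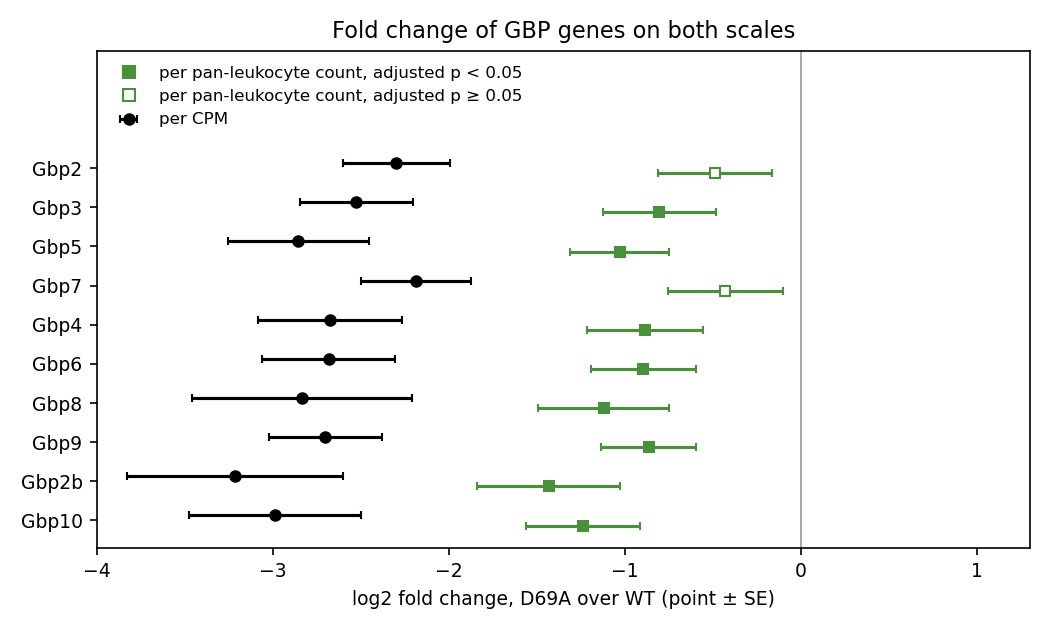
Log2 fold change of D69A over WT (point, with its SE as a bar) for the 8 GBP members and for Gbp2b and Gbp10, per CPM (circles) and per pan-leukocyte count (squares, filled where the adjusted p is below 0.05). Per CPM all points lie between -3.22 and -2.19, and per pan-leukocyte count between -1.43 and -0.43, with Gbp2 and Gbp7 open.

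GBP genes are switched on by interferon-gamma through its receptor and through factors such as IRF1, so genes of this axis were listed beside them. Of 12 such genes, 10 were lower in D69A tumors and none higher, against 24.7% lower and 18.8% higher among all genes. Their median log2 fold change was -1.56. Ifng itself was scarce, at 0.37 ± 0.24 CPM in D69A tumors and 2.08 ± 0.85 CPM in WT tumors (SD, n = 5 each), a change of -2.47 on the log2 scale (SE 0.48, edgeR adjusted p = 0.00219). Irf1 stood at 51.8 ± 11.3 CPM in D69A tumors and 171.3 ± 43.6 CPM in WT tumors (log2 fold change -1.73, edgeR adjusted p = 0.000447). Stat2 (-1.97), Irf9 (-1.39), the myeloid factor Irf8 (-2.54) and the feedback inhibitor Socs1 (-2.26) fell as well, and Ifngr1 (-0.87), Jak2 (-0.80) and Irf2 (-0.78) by less, all as log2 fold changes per CPM. Ifngr2, the other receptor chain, had a log2 fold change of 0.00 (-0.00185, edgeR adjusted p = 0.983) and Jak1 one of -0.33 (edgeR adjusted p = 0.0536). Per pan-leukocyte count, 1 of the 12 was lower (Irf8) and 5 were higher, where 83.5% of all genes were called higher and 2.46% lower, and Irf1 did not pass (0.14, edgeR adjusted p = 0.685).

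The immunity-related GTPases (IRGs), which act with GBPs on vacuoles in mouse cells, were lower in 6 of 6 tested cases, against 24.7% of all genes. Their median log2 fold change was -2.43. The effector genes Iigp1 (-2.74), Tgtp1 (-2.72) and Tgtp2 (-2.58) had decreases of the size seen for GBPs, as log2 fold changes per CPM, although Tgtp1 and Tgtp2 are near-identical copies whose reads can be split either way. The regulatory members Igtp (-2.29), Irgm2 (-2.28) and Irgm1 (-1.73) followed. Per pan-leukocyte count Iigp1, Tgtp1 and Tgtp2 were lower, against 2.46% of all genes, and the other tested members did not pass. Gm12250 was not analysed here.

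Genes of inflammasomes and of pyroptosis, a lytic cell death, fell in 8 of 9 cases, against 24.7% of all genes, and the median log2 fold change was -1.94. The median of the 12 pan-leukocyte genes was -2.09 on the same scale. Per pan-leukocyte count 1 of the 9 was lower and 3 were higher, with a median of -0.05. Of all genes, 2.46% were called lower and 83.5% higher on that second scale. Casp4, the mouse gene of caspase-11, stood at 3.01 ± 1.02 CPM in D69A tumors and 14.7 ± 5.71 CPM in WT tumors (SD, n = 5 each), a change of -2.29 on the log2 scale (edgeR adjusted p = 0.000727). Casp1 (-2.32), Gsdmd (-2.53), which encodes the pore-forming gasdermin D, and Pycard (-1.94), which encodes the adaptor ASC, fell by similar amounts per CPM. Il18, overexpressed in both groups, did not pass (-0.12, edgeR adjusted p = 0.266).

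Of 6 enzymes that prenylate proteins or process their ends, 3 were higher in D69A tumors, against 18.8% of all genes, and none lower. Fntb, the catalytic chain of farnesyltransferase, stood at 30.2 ± 1.16 CPM in D69A tumors and 23.5 ± 2.27 CPM in WT tumors (SD, n = 5 each), a change of 0.36 on the log2 scale (SE 0.07, edgeR adjusted p = 0.00284). Fnta had a log2 fold change of 0.19 and Pggt1b one of 0.15. Of 12 more distant GTPases of the dynamin superfamily, 3 were lower and 4 higher, against 24.7% of all genes lower and 18.8% higher. The 3 lower ones were Mx1 (-3.13), Mx2 (-2.86) and Gvin1 (-2.42), known as interferon-induced genes. Opa1, a fusion protein of mitochondria, was the higher one with the smallest p (0.35, edgeR adjusted p = 0.000848).

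**Figure D4:**
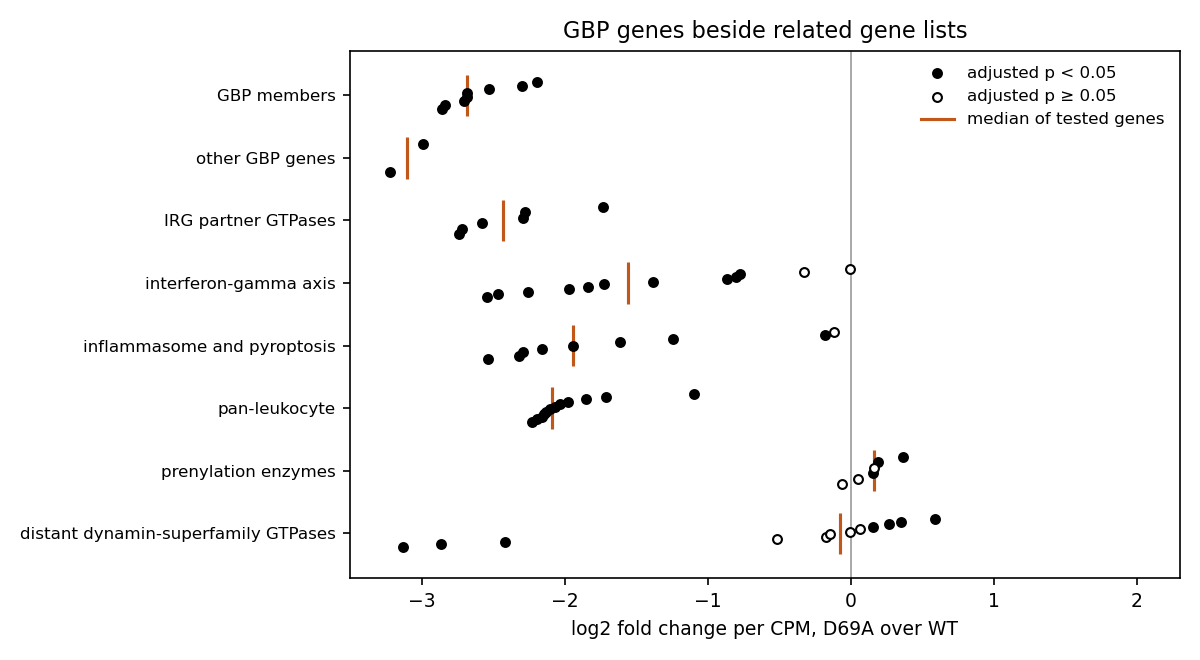
Log2 fold change per CPM of D69A over WT for each tested gene of the GBP family and of 6 related lists, filled where the adjusted p is below 0.05, with the median of each list as a line. GBP and IRG genes lie between -3.22 and -1.73, the pan-leukocyte genes between -2.23 and -1.10, and the prenylation enzymes between -0.06 and 0.36.

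The genes nearest to the family in pattern were sought among 12621 genes outside it with a mean of at least 1 CPM. Likeness was measured over the 10 tumors as the root mean square distance, in log2 CPM, between a gene's profile and the mean profile of the 8 members, each taken relative to its own mean. The 8 nearest were Tgtp1 (0.15), Tgtp2 (0.16), Cxcl9 (0.17), Phf11d (0.18), Ifi203 (0.18), Iigp1 (0.18), Zbp1 (0.19) and Slfn8 (0.20), against a median distance of 1.498 over all genes compared. Cxcl9 encodes a chemokine induced by interferon-gamma, Ifi203 a protein of the PYHIN family and Zbp1 a nucleic acid sensor. Among the members themselves the distance ran from 0.07 for Gbp6 to 0.48 for Gbp8, with Gbp2 and Gbp7 each at 0.27. The 8 genes named were picked as the smallest of 12621 distances, so ranking them against the members shows nothing about the members. These distances describe these tumors and carry the difference between the groups.

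**Figure D5:**
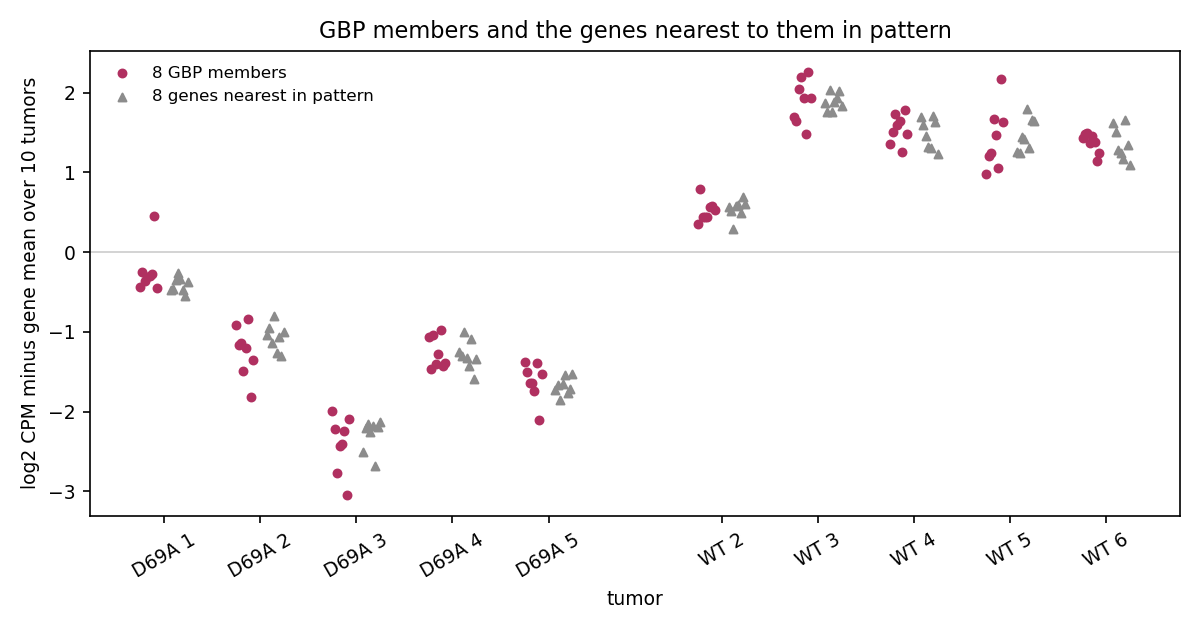
Log2 CPM of each gene minus its own mean over the 10 tumors, 1 column of points per tumor, for the 8 GBP members (circles) and the 8 genes nearest in pattern (triangles). The mean profile of the members is lowest in D69A tumor 3 (-2.40), comes to -0.24 in D69A tumor 1 and 0.52 in WT tumor 2, and is highest in WT tumor 3 (1.90).

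Promoter windows were available for the 4 members on chromosome 3 and are shown because these genes moved together. They run from 250 bases before to 50 bases after a RefSeq transcription start (GRCm38.p6, plus strand). TTCNNNGAA, the core of interferon-gamma-activated sites, and a pair of GAAA blocks with 2 bases of any kind between them, the core of interferon-stimulated elements that IRF factors bind, were searched on both strands and are in capitals:
Gbp2 chr3:142620413-142620712: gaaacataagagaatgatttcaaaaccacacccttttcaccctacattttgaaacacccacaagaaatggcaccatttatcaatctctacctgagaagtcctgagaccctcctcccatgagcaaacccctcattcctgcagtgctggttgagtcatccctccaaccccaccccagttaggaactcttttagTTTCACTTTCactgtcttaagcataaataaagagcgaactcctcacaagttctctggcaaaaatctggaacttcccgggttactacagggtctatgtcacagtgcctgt
Gbp3 chr3:142559794-142560093: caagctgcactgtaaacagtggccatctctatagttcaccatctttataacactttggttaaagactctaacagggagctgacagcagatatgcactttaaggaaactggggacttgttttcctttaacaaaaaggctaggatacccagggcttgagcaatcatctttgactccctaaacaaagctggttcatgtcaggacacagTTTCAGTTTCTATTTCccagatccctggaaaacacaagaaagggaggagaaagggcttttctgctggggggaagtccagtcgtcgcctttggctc
Gbp5 chr3:142496684-142496983: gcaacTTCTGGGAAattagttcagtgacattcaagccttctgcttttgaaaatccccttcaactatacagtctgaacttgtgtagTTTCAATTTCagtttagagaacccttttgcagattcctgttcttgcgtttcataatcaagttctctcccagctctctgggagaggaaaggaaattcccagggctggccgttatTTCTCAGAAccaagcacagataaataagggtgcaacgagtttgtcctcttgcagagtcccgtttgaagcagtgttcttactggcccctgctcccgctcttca
Gbp7 chr3:142530086-142530385: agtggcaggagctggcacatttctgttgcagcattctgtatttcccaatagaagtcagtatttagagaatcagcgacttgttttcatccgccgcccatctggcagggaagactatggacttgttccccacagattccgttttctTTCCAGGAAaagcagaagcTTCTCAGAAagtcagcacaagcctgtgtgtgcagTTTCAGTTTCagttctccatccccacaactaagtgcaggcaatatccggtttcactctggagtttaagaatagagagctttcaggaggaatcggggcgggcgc

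All 4 windows held the GAAA pair on their minus strand, and the capitals show it as TTTC blocks. It occurred on either strand in 3.43% of 32817 windows of this length. In Gbp2 the match ran from -59 to -50, counted in bases from the start site, in Gbp7 from -53 to -44, and in Gbp3 2 overlapping matches ran from -45 to -30. In Gbp5 it lay farther away, from -165 to -156. A second annotated start of Gbp3 had neither motif in its window. TTCNNNGAA occurred 2 times each in Gbp5 and Gbp7 and in 8.29% of all windows. Matches of letters do not show binding. Windows for Gbp4, Gbp6, Gbp8 and Gbp9 are not shown.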

How the data were processed

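The deposited table held whole-number read counts per Ensembl gene for the 10 tumors (5 a group), not scaled between samples. The authors' tools were fastp, HISAT, Bowtie and RSEM with build mm10, per the submitters' processing notes. The sources used here give neither their roles and versions nor the annotation, counting rule, read length or strand setting. RSEM gives estimates, so reads of close copies may be split between genes. Symbols matched 17670 of 17737 identifiers. Low counts were filtered with edgeR's filterByExpr, libraries scaled by TMM, and the groups tested with edgeR 4.0.16 in R 4.3.3 (quasi-likelihood F test, Benjamini-Hochberg over 13798 genes). SEs came from the F statistic. For the second scale, library sizes were replaced by summed counts of 12 pan-leukocyte genes, without TMM. Levels per kilobase used exons of coding transcripts in GENCODE mouse release M21 (same build), and shared words were searched in all its transcripts on both strands. All pairs of tumors within a group differed beyond sampling noise (chi-square per degree of freedom at least 13.9 over genes with at least 20 counts). The test was also run on counts simulated from the means and spreads fitted to these data, which cannot show whether the model suits them. Members and lists were chosen with earlier results of these data known. Named genes were all GBPs, all tested genes of the interferon-gamma and IRG lists, up to 4 with the smallest p of each other list and the 8 nearest in pattern; Il18 was added after its value was seen. A listed gene of the interferon-gamma axis is counted but not reported here. Alternatives were DESeq2 (1.42.0), limma-voom (limma 3.58.1), other scalings, filters, thresholds and yardsticks, a block for the replicate number, and fits with tumors left out.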

Additional observations from a re-analysis of the deposited data

Results flagged for a closer look

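Gbp8 in D69A tumor 1, at 3.96 CPM, stood apart from the other D69A tumors, which lay between 0.30 and 1.035 CPM. That distance made up 0.799 of all the spread among D69A tumors. Among 32 sets of values (8 members, 2 groups, 2 scales) this was the 1 singled out, and chance gives about 1 in 20. D69A tumor 1 was also the D69A tumor highest in pan-leukocyte and skeletal muscle RNA, whose part in the value was not tested.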

How the results depend on the processing

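Per CPM, 8 of 8 members were lower in D69A tumors under each of 21 alternatives, 8 to 8 with 1 tumor left out, and the largest adjusted p was 0.0146 (Gbp8). The count of all genes called lower, 3410, ranged from 2826 to 3631 with 1 tumor left out, and was 1800 in the test against a fold of 1.5. Per pan-leukocyte count, 4 to 6 members passed with 1 tumor left out, and 2 with Ptprc alone as the yardstick; the cause was not tested. With the replicate number as a block, 8 members were lower per CPM and 4 per pan-leukocyte count, where Gbp3 (adjusted p = 0.107) and Gbp4 (0.0524) lost their calls, and 3218 of all genes were lower. The numbers 2 to 5 occur in both groups. Deviations of same-numbered tumors from their group means had correlations of 0.177, -0.417, 0.203 and 0.167. Differently numbered tumors were not compared, so whether a shared number means shared handling was not tested. Without the 3 tumors highest in muscle markers, a choice made after seeing the data, 8 members were lower per CPM and 6 per pan-leukocyte count. The Gbp2 share over coding length was 31.3% in D69A tumors and 27.1% in WT tumors, lower than over exons. A share depends on the lengths of all 8 members. Gbp2 had 2516 exon bases and 1767 coding bases, and Gbp7 had 5614 and 1914.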

Other observations

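Gbp11, annotated as a polymorphic pseudogene, was too low to be tested. It had 0, 6, 0, 0 and 4 counts in D69A tumors 1 to 5 and 7, 33, 44, 32 and 26 counts in WT tumors 2 to 6. Gm43302, the gene that spans Gbp6 and Gbp10, had 73 to 215 counts in D69A tumors and 400 to 1505 counts in WT tumors.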
